A study of Mus musculus with 6 samples.

Results

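Genes for the proteins of the cytosolic ribosome were taken as all probe sets whose only platform gene symbol was Rps or Rpl with a number and an optional a, x, l or l1 ending, or Rplp0, Rplp1, Rplp2 or Rpsa. This gave 103 of 45137 probe sets, for 47 of 18193 genes. Chip A held 98 of these probe sets for 46 genes and chip B held 5 for 4 genes, with 3 genes on both chips. Rplp1 had no probe set of a single symbol, and 1 further probe set was left out because RefSeq lists its gene, Rps4l, as a pseudogene. Another 102 probe sets on chip A and 10 on chip B carried a ribosomal protein symbol together with other symbols, mostly predicted genes or pseudogenes. These were kept apart, and no gene was named from them. Ribosomal protein genes measured only by such probe sets are therefore not described.

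The cytosolic ribosome translates messenger RNA and is built from ribosomal RNAs and a set of proteins that are needed in nearly equal numbers. Genes named Rps encode proteins of the small (40S) subunit, which reads the message, and genes named Rpl encode proteins of the large (60S) subunit, which joins amino acids. Most of their messenger RNAs begin with a short pyrimidine stretch, the terminal oligopyrimidine tract, through which growth signalling sets their translation as a group. Cells that grow and divide are known to make more ribosomes than resting cells, and mature neurons need them for upkeep of the cell body and axon.

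RNA came from 3 populations of OMP-GFP mice, in which GFP stands in for the coding region of Omp, a marker gene of mature olfactory sensory neurons (OSNs). They were OSNs sorted by fluorescence (about 500000 cells), the olfactory epithelium left without mature OSNs (about 2500000 cells, here residual epithelium), and whole brain minus the olfactory bulbs. All 3 populations carried the same allele. The labels leave out its zygosity and the strain, age, sex and number of mice. Each population was hybridised to 1 array of each chip, so there were 6 arrays, no replicates and no test of any difference.

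On chip A, Omp and the summed markers of OSNs and of brain neurons were highest in the population they define. Omp itself gave 11057 (OSNs), 248.8 (residual epithelium) and 201.4 (brain). The summed signal of 4 OSN markers was 48957, 2726 and 2185 in that order, and that of 9 brain neuron markers was 8229, 1718 and 38310. The deposited signals are MAS5 intensities on a linear scale, with every array scaled to a trimmed mean near 500. Log2 ratios were taken within a chip after raising signals under the lower quartile (70.6 on chip A) to that floor. A gene entered a comparison if at least 1 of the 2 signals was no lower than the chip median (222.15 on chip A, 243.6 on chip B), and it was represented by its brightest probe set. As a guide to array error, 100 probe sets present on both chips had log2 ratios that differed between chips with an SD of 0.25 for OSNs over residual epithelium, 0.29 for OSNs over brain and 0.34 for residual epithelium over brain. Chip B also differed from chip A by a mean of -0.23, 0.19 and 0.42 in these comparisons, an offset that the SDs leave out. These SDs do not stand for the spread between animals, and the labels do not say whether both chips received the same extract.

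Promoter sequences, which the selection did not use, were searched for the tract and for common motifs. The RefSeq promoter table (GRCm38.p6) held 42 of the 47 genes, in 50 windows from 250 bases before to 50 after an annotated start. The search on the transcript strand was for a C followed by at least 5 pyrimidines (C or T), beginning within 5 bases of the start. It was found in 17 of 50 windows (34%), against 10.2% of all 32851 windows. The following 30 bases each span the start, from 10 bases before it to 20 after, with the tract in capitals. They are shown because Rpl35, Rps9 and Rps2 were among the genes furthest below 0 for OSNs over residual epithelium, Rpl7a was among the bright genes nearest to 0, and Rpl22l1 differed from its relative Rpl22 (Rpl35, chr2:39005112-39005141, minus strand. Rps9, chr7:3704031-3704060, plus strand. Rps2, chr17:24720053-24720082, plus strand. Rpl7a, chr2:26910797-26910826, plus strand. Rpl22l1, chr3:28805498-28805527, plus strand).
Rpl35: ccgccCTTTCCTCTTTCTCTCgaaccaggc
Rps9: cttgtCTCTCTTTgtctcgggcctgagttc
Rps2: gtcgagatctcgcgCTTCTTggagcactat
Rpl7a: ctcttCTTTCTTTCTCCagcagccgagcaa
Rpl22l1: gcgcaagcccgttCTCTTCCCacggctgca

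No such tract lay at the annotated start of Rplp0 or Rpl41, genes with a large and a small difference. Their windows are given for comparison (Rplp0, chr5:115559457-115559486, plus strand. Rpl41, chr10:128549149-128549178, minus strand). The absence of a match says only that these letters are not at that annotated position.
Rplp0: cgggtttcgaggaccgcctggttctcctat
Rpl41: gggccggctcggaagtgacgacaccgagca

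The motif CCGGAAG, the core bound by ETS family factors, was searched on both strands. It was present in 20 of 50 windows (40%), against 8.86% of all windows. TATAAA, the TATA box, was in 12% against 13.6%, and GGGCGG, a GC box, in 52% against 35.7%, both on either strand. None of the 3 motifs contains another, though the ends of CCGGAAG and GGGCGG can share bases. These 3 examples carry CCGGAAG or its reverse complement in capitals (Rpl35, chr2:39005240-39005269, minus strand. Rpl41, chr10:128549206-128549235, minus strand. Rpl11, chr4:136053369-136053398, minus strand).
Rpl35: ggaaggcaggaCTTCCGGgaagcggagggc
Rpl41: tagtaaggcagCCGGAAGtcgctgtctcga
Rpl11: aggccacggggCCGGAAGtctccctctctc

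For OSNs over residual epithelium, counted genes with and without the tract or CCGGAAG had close medians. The median log2 ratio was -0.93 over 15 genes with the tract and -0.88 over 22 without it. It was -0.90 over 19 genes with CCGGAAG and -0.89 over 18 without. For residual epithelium over brain, the medians lay further apart, at 0.65 over 16 genes with the tract and 0.90 over 22 without it. With CCGGAAG the median was 0.86 over 19 genes, and without it 0.67 over 19. These medians describe the arrays, and their differences have no test.

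Ribosomal protein genes were highest in residual epithelium. Of the 43 genes on chip A whose highest signal reached the chip median, 39 had that highest signal in residual epithelium, 4 in brain and none in OSNs. The lowest signal was in OSNs for 20 genes, in brain for 22 and in residual epithelium for 1. The 98 probe sets on chip A together took 2.27% (OSNs), 4.22% (residual epithelium) and 2.37% (brain) of the summed signal. With the probe sets of several symbols added, the shares were 4.84%, 9.08% and 5.36%. In RNA from mixed populations, fewer cells of a type and less RNA per cell cannot be told apart. On scaled arrays a share is not an amount per cell. Of the 98 probe sets, 86 were above the floor in at least 1 population and 12 were under it in all 3. The 3 genes that did not reach the chip median were Rpl39l, Rpl3l and Rpl14, a 60S protein with signals of 107.3, 188.4 and 75.

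**Figure D1:**
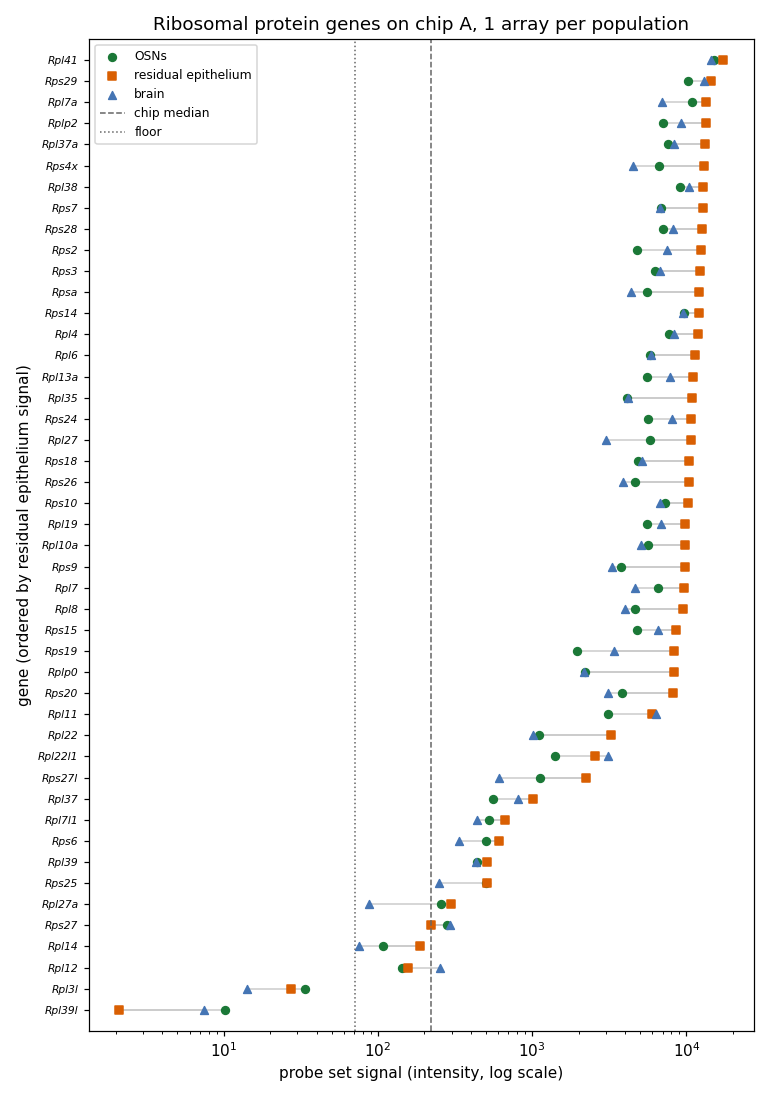
Signals of the 46 ribosomal protein genes on chip A (log axis, probe set intensity), 1 point per population and gene, each from 1 array, ordered by the residual epithelium signal. The residual epithelium point lies to the right in 39 of the 43 genes that reach the chip median (dashed line), and Rpl39l and Rpl3l lie under the floor (dotted line) in all 3 populations.

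OSNs had lower signals than residual epithelium in 41 of 42 counted genes on chip A. The median log2 ratio was -0.89 (1.85-fold lower), against -0.01 over all 7751 counted genes. At least 2-fold lower were 12 of 42 (28.6%), against a background of 18.6% of all genes, and 0 were at least 2-fold higher, against 12.6%. The shift was small but narrow, with an SD over genes of 0.48 compared with 1.28 over all counted genes. In 37 genes the ratio was further below 0 than the SD between chips, which leaves out the offset between them. Because 22 of the 42 ratios lay within that SD of the 2-fold limit, the count of 12 is less firm than the median. The members on either side of that limit were Rpl8 at -1.04 and Rps27l at -1.01, then Rpl13a at -0.998 and Rps3 at -0.98, just short of 2-fold. The count was 21 with arrays scaled on the probe sets shared by both chips, a setting that moved the median of all genes by over 0.1 to -0.15. The family median minus that of all genes was then -0.86, against -0.87 in the deposited scaling. Under centring, quantile normalization and scaling on shared probe sets, Rps25 and Rpl27a changed sign and the other 40 genes did not.

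**Figure D2:**
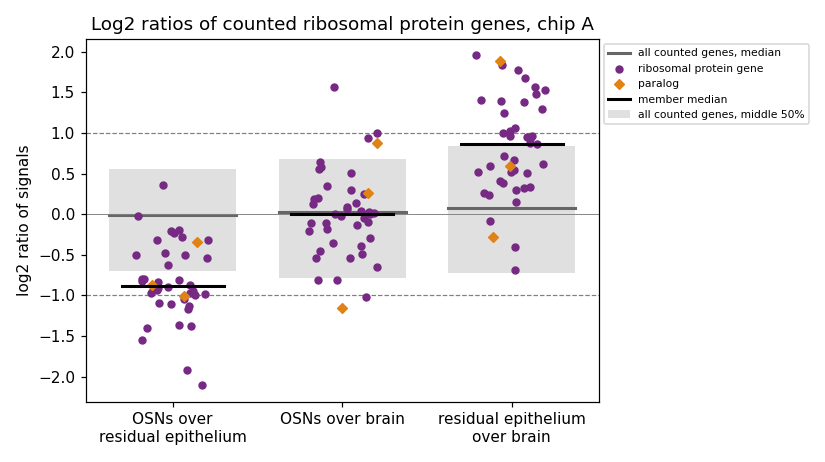
Log2 signal ratios of the counted ribosomal protein genes on chip A in the 3 comparisons (42, 43 and 43 genes, 1 point each), over the middle 50% of all counted genes (grey boxes). The black member medians are -0.89, 0.01 and 0.86, and that of OSNs over brain is -0.08 with quantile normalization and -0.16 with scaling on shared probe sets.

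Among small subunit genes, 7 of 19 counted (36.8%) were at least 2-fold lower in OSNs, against 18.6% of all counted genes (median -0.94). Rps19, needed for 40S maturation and mutated in Diamond-Blackfan anaemia, had signals of 1944 (OSNs), 8357 (residual epithelium) and 3403 (brain). It was 4.3-fold lower than in residual epithelium, the largest difference among the 42 genes. Rps9, a core protein near the messenger RNA entry, had 3753, 9770 and 3310 in the same order and was 2.60-fold lower. Rps2, of the same region, had 4818, 12364 and 7535 and was 2.57-fold lower. For these 3 genes the residual epithelium array was high, and only for Rps9 were OSNs and brain close together.

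Rpsa, a 40S protein also known as the laminin receptor, had signals of 5530, 12071 and 4343 and was 2.18-fold lower in OSNs than in residual epithelium. Rps3, which lines the messenger RNA entry, had 6226, 12300 and 6710 and was 1.98-fold lower. Rps4x, an X-linked 40S protein, had 6617, 12939 and 4496 and was 1.96-fold lower. In all 3 genes residual epithelium was highest, and brain was lowest in Rpsa and Rps4x.

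Small subunit genes with the smallest ratios were mostly measured by dim probe sets. Rps6, the target of S6 kinase, had signals of 502.6, 612.5 and 337.1. Rps25, which some viral and cellular messages need to start translation, had 499.2, 506.9 and 250. The single gene above residual epithelium was Rps27, with 282.2, 220.4 and 291.7 and a log2 ratio of 0.36. It passed the signal filter only through the OSN array, which fixes its direction. Of these 3 genes, Rps25 and Rps6 were lowest in brain, and the signals of Rps27 lay close together in all populations.

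Among large subunit genes, 4 of 20 counted (20%) were at least 2-fold lower in OSNs, a share close to the 18.6% of all counted genes (median -0.84). All 20 lay below 0. Counted as probe sets, 15 of 36 were lower (41.7%), beside 19 of 37 for the small subunit (51.4%) and 18.3% of all probe sets. The share thus depends on the choice of probe set. Rplp0, the base of the stalk that binds elongation factors, had signals of 2205 (OSNs), 8355 (residual epithelium) and 2154 (brain). It was 3.79-fold lower in OSNs than in residual epithelium and 1.02-fold from brain. Rplp2, which binds to that base as part of the stalk, had 7019, 13396 and 9177 and was 1.91-fold lower. The stalk proteins thus had the same direction with unequal size.

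Rpl22, a 60S protein that also binds viral and cellular RNAs, had signals of 1104, 3220 and 1009 and was 2.92-fold lower in OSNs than in residual epithelium. Rpl35, which sits at the exit of the peptide tunnel, had 4093, 10796 and 4156 and was 2.64-fold lower. Rpl8, a core protein near the peptidyl transferase centre, had 4611, 9473 and 4002 and was 2.05-fold lower. In these 3 genes OSNs and brain lay close together and residual epithelium stood above both. Rpl37, a zinc-binding 60S protein with a dimmer probe set, had 556.9, 1016 and 811.5 and was 1.82-fold lower in OSNs than in residual epithelium, near the family median.

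Small differences were found at both ends of the signal scale. Rpl41, the smallest ribosomal protein, was the brightest member, with 15115, 17351 and 14491, and was 1.15-fold lower in OSNs. Rpl7a, a 60S protein bound early in assembly, had 10804, 13487 and 6938 and was 1.25-fold lower. Rpl38, known for its part in translating Hox messages, had 9127, 12739 and 10389 and was 1.40-fold lower. The dim probe set of Rpl39, a tunnel protein, gave 436.1, 511.4 and 434.3, and that of Rpl27a gave 257.4, 297.9 and 87.3.

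The size of the difference was not even along the signal scale. Of 79 counted probe sets, the 29 with a higher signal over 10000 had a median of -0.90. The 28 between 5000 and 10000 had -1.12, the 12 between 1000 and 5000 had -1.12, and the 10 below 1000 had -0.31. The median of other probe sets rose with signal, whereas that of members had no steady trend. Other probe sets had a median of 0.88 over the 59 above 10000 and 0.43 over the 299 between 5000 and 10000. It was 0.13 between 1000 and 5000 and -0.06 below 1000. Members whose higher signal was above 5000 thus had lower medians than other probe sets of the same class. These classes use the higher of the signals compared, which itself depends on the ratio. Members and other probe sets were therefore not matched for signal in either population, and whether signal level accounts for their difference was not tested. Across the 79 probe sets, which share the same arrays, the ratio had a Spearman rho of 0.15 and a Pearson r of -0.14 with log2 signal.

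For OSNs over residual epithelium, 19 genes were measured by more than 1 counted probe set. All of these counted probe sets lay below 0 in the deposited scaling. The SD between probe sets of a gene was 0.53. In 13 of the 19, the brightest probe set in residual epithelium had a smaller difference (a log2 ratio nearer to 0) than the dimmest. Rps10, a 40S protein near the messenger RNA entry, ranged most, from -0.51 (probe set 1438723_a_at) to -3.53 (1439374_x_at). The latter had signals of 288.2 (OSNs), 3337 (residual epithelium) and 280.3 (brain), and the former had 7215, 10240 and 6778. Rpl13a, a 60S protein also released in the interferon response, ranged from -0.95 to -2.59, and Rpl7 from -0.54 to -1.93. The counted probe sets of Rpl35 kept within 0.12 log2 units, from -1.40 to -1.51. A dim Rpl35 probe set that was not counted (1454833_at) had 140, 124.9 and 128.3 and a ratio of 0.16. The size for any 1 gene thus depends on the probe set, and its direction did not among the counted probe sets of these 19 genes.

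**Figure D3:**
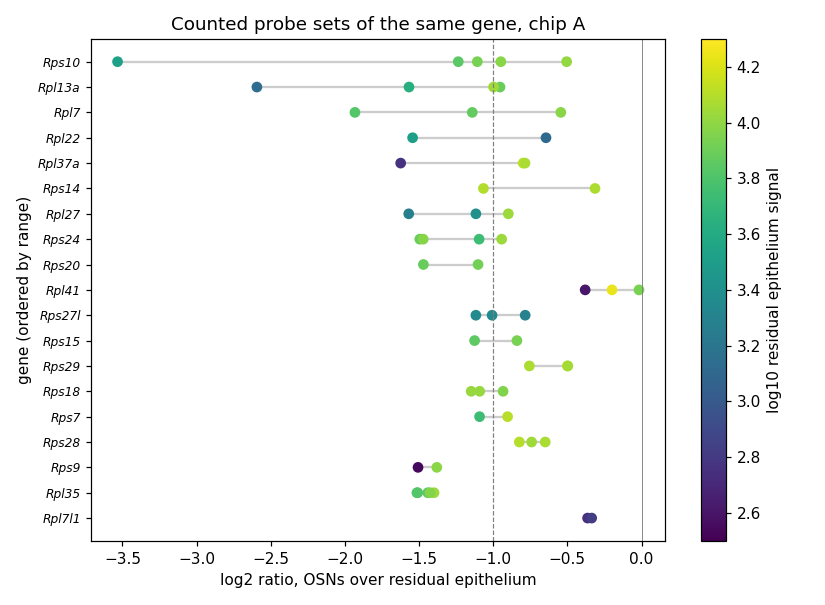
Log2 ratios of OSNs over residual epithelium for the 19 genes with more than 1 counted probe set on chip A, 1 point per probe set, coloured by the log10 residual epithelium signal, genes ordered by range. In the deposited scaling all points lie below 0, and the widest range is that of Rps10, from -0.51 to -3.53.

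Ratios also differed between types of probe set, which differ in signal too. Suffixes mark design: plain _at sets are meant to be unique, _a_at sets cover several transcripts of a gene, and _x_at sets hold probes that can bind other sequences. The median was -0.36 over 13 plain sets, -0.96 over 26 _a_at sets and -1.09 over 38 _x_at sets. The plain sets fell into 2 classes of signal. The 6 with a residual signal of 3220 to 12071 (Rpl19, Rpl22, Rpl27, Rplp0, Rps15 and Rpsa) had ratios from -0.81 to -1.92 (median -1.01). The 7 with 220.4 to 664.9 (Rpl27a, Rpl39, Rpl7l1, Rps25, Rps27 and Rps6) had ratios from -0.36 to 0.36 (median -0.23). The dim plain sets thus had ratios nearer to 0 than the bright ones, and type and signal were not separated. The 88 counted probe sets of several symbols had a median of -0.96, with 38 at least 2-fold lower and 0 higher, against a background of 18.3% and 12.7% of all probe sets. Over the members' own probe sets, 36 of 79 were at least 2-fold lower and 0 higher. Against brain, 3 of 79 member probe sets were higher in OSNs (background 16.2%) and 4 lower (22.2%). Between residual epithelium and brain, 35 of 80 were higher (20.7%) and 0 lower (21.1%).

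Against brain, ribosomal protein signals of OSNs lay on both sides of 0. The median log2 ratio over 43 genes was 0.01 on chip A, against 0.03 over all 7857 counted genes, with 21 genes below 0 and 22 above. At least 2-fold higher was 1 gene, against a background of 16.7%, and 2 were at least 2-fold lower, against 21.4%. In 21 of 43 genes the ratio was smaller than the SD between chips, and the SD over genes was 0.54, compared with 1.47 over all genes. The sign of the median depended on the scaling, at -0.02 with centring, -0.08 with quantile normalization and -0.16 with scaling on shared probe sets. Under these settings 9 of the 43 genes changed sign.

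The genes that stood out from brain were few. Rpl11, which forms a particle with the 5S ribosomal RNA and can bind Mdm2, had signals of 3105 (OSNs), 5947 (residual epithelium) and 6304 (brain), so OSNs were 2.03-fold lower than brain. Rpl27, a 60S protein, had 5764, 10741 and 3001 and was 1.92-fold higher in OSNs than in brain. Rpl27a was 2.95-fold higher by a dim probe set that passed the filter only through OSNs, and this call was lost when the floor or the signal filter was raised. Rps19 was 1.75-fold lower in OSNs than in brain, and Rps25 was higher in OSNs at a log2 ratio of 0.998, just short of the limit. Rpl11 and Rpl27 differed from brain in opposite directions, while both were lower than residual epithelium by a like amount (1.92-fold and 1.86-fold).

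Residual epithelium exceeded brain in 39 of 43 counted genes on chip A. The median log2 ratio was 0.86 (1.82-fold), against 0.08 over all 8309 counted genes. At least 2-fold higher were 15 of 43 (34.9%), against a background of 21.2%, and 0 were at least 2-fold lower, against 19.6%. This comparison shares its residual epithelium array with the first and its brain array with the second, so the 3 are not independent. Rplp0 had the largest ratio (3.88-fold), followed by Rps27l (3.70-fold), Rpl27 (3.58-fold), Rpl27a (3.41-fold), Rpl22 (3.19-fold) and Rps9 (2.95-fold). Below brain were Rpl12, a stalk base protein measured by a dim probe set (-0.69), Rps27 (-0.40), Rpl22l1 (-0.28) and Rpl11 (-0.08). Rpl12 and Rps27 passed the signal filter only through brain, and Rpl27a only through residual epithelium, which fixes the direction of these 3. Rps29, a zinc-binding 40S protein, was at 0.15 and changed sign with quantile normalization (-0.05).

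Paralogs are separate genes whose proteins can replace a ribosomal protein or resemble one. Rpl22l1, the relative of Rpl22, had signals of 1400 (OSNs), 2568 (residual epithelium) and 3113 (brain), so it was highest in brain. It was 2.22-fold lower in OSNs than in brain, whereas Rpl22 was 1.09-fold from brain there. Between residual epithelium and brain, the log2 ratio was -0.28 for Rpl22l1 and 1.67 for the brightest probe set of Rpl22. A second Rpl22 probe set (1448398_s_at) had 822.1, 1285 and 1164 and a ratio of only 0.14, so the contrast between these paralogs rests on 1 Rpl22 probe set on this chip.

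Rps27l, a relative of Rps27 known as a p53 target, had signals of 1117, 2247 and 607.7, and was higher than brain in OSNs (1.84-fold) and in residual epithelium (3.70-fold). Its 3 probe sets gave ratios over brain from 0.88 to 1.32 in OSNs and from 1.89 to 2.25 in residual epithelium. Rpl7l1, which resembles Rpl7 and is known from ribosome assembly rather than the finished ribosome, had 526.7, 664.9 and 440.9. It lay 1.26-fold lower in OSNs than in residual epithelium. Rpl39l, known from male germ cells, and Rpl3l, known from muscle, were under the floor in all 3 populations. Their highest signals were 10.2 and 33.5, so no ratio was taken.

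**Figure D4:**
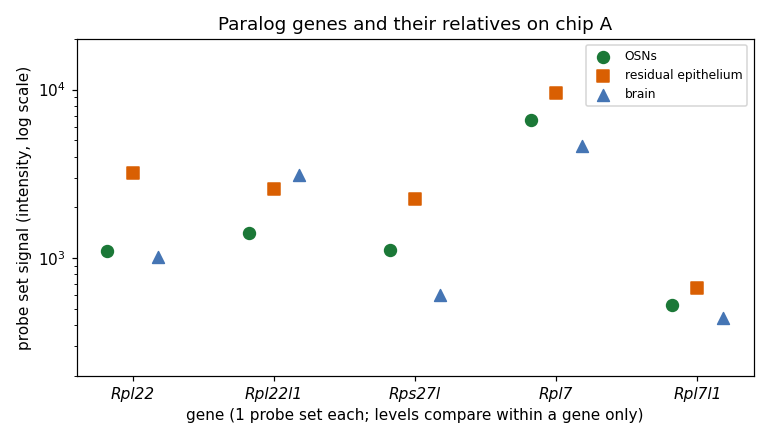
Signals of 3 paralog genes and of Rpl22 and Rpl7 on chip A (log axis, probe set intensity), 1 array per population; levels can be compared within a gene only. Rpl22l1 is highest in brain (3113), whereas Rpl22 is highest in residual epithelium (3220), and Rps27l is lowest in brain (607.7).

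Chip B held few members. Rpl22 had signals of 9495 (OSNs), 31792 (residual epithelium) and 8145 (brain) there (probe set 1453118_s_at), 3.35-fold lower in OSNs than in residual epithelium and 1.17-fold from brain. Rps3 had 1507, 2620 and 1286 (1455600_at), with a log2 ratio of -0.80 against residual epithelium. Its second probe set (1447563_at) went the other way, with 527.9, 191.5 and 407.7 and a ratio of 1.46. Rpl7l1 had 696.9, 735.5 and 534.9, and its ratio of -0.08 changed sign under each other scaling. Rps16, a 40S protein, was under the floor of 79.9 in all 3 populations.

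Of these 3 counted genes, 1 was at least 2-fold lower in OSNs than in residual epithelium, where the background on chip B was 17.7%, and 0 were higher against 13.4%. Between residual epithelium and brain 2 were higher (background 22.3%) and 0 lower (19.5%). With scaling on shared probe sets the share of all calls that were higher moved from 53.3% to 35.4% in that comparison. Against brain, 0 of 3 genes were called in OSNs, where the background was 19.6% higher and 21.4% lower. Counted as 4 probe sets, 1 was higher (13.9%) and 1 lower (17.5%) in OSNs than in residual epithelium. Against brain 0 were higher (19.2%) and 0 lower (22.8%). Residual epithelium was higher than brain in 2 of the 4 (21.5%) and lower in 1 (21%). Probe sets 1415701_x_at and 1415716_a_at, which carry several ribosomal protein and related symbols, were on both chips and serve as a repeat. For OSNs over residual epithelium the first gave -0.88 on chip A and -0.89 on chip B, and the second gave -0.99 and -1.23. For OSNs over brain they gave -0.25 and 0.21 on chip A, and 0.15 and 0.52 on chip B. For residual epithelium over brain they gave 0.63 and 1.20 on chip A, and 1.04 and 1.76 on chip B. The ratios over brain were thus higher on chip B, and the first probe set changed sign for OSNs over brain.

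Other genes of translation and ribosome assembly are described from lists chosen by function. Their counts stand against the same chip A backgrounds, for OSNs over residual epithelium 18.6% lower and 12.6% higher, and for OSNs over brain 21.4% lower and 16.7% higher. The messages with a terminal oligopyrimidine tract that do not encode these ribosomal proteins had the median closest to that of the family. Of 10 counted on chip A, 4 were at least 2-fold lower in OSNs than in residual epithelium and 0 higher (median -0.89), and against brain 1 was lower and 0 higher (median 0.06). Vim, an intermediate filament gene of non-neuronal and precursor cells, was 6.11-fold lower than in residual epithelium, and Gas5, a non-coding host of small nucleolar RNAs, 2.96-fold lower. Pabpc1, the poly(A)-binding protein, was 2.51-fold lower. Tpt1 and Btf3 were at -0.21 and -0.46.

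Ribosome biogenesis genes, which make and process ribosomal RNA, had a median of -0.60 for OSNs over residual epithelium on chip A, with 6 of 35 lower and 1 higher, so that the lower count is near the background. Utp3 and Gar1, of the nucleolar processing machinery, were 2.94-fold and 2.63-fold lower, while Pno1, a 40S assembly factor, was 2.32-fold higher and Rrp1 was at 0.90. Against brain the median was -0.17, with 2 of 35 lower and 1 higher. On chip B 4 of 11 were lower in OSNs and 0 higher than in residual epithelium (median -0.76, background 17.7% and 13.4%).

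Elongation factors, which carry out peptide chain growth, had a median of -0.58 over 7 genes on chip A, with 1 lower and 1 higher, and of 0.26 over 2 genes on chip B. Eef1b2, an exchange factor subunit, was 2.84-fold lower in OSNs than in residual epithelium. Eef1a2, the form of elongation factor 1A used by neurons and muscle, had signals of 6743 (OSNs), 967.7 (residual epithelium) and 11536 (brain). OSNs exceeded residual epithelium 6.97-fold and were 1.71-fold below brain. Eef1a1, the form used in most cells, had 13855, 17741 and 14385. The elongation factor 1A genes thus differed in opposite directions between OSNs and residual epithelium.

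Initiation factors had a median of -0.31 for OSNs over residual epithelium on chip A, with 2 of 28 lower and 0 higher, and of 0.04 over 7 genes on chip B, with 1 lower. The chip B medians of the elongation and initiation lists thus lay above 0. The lower ones on chip A were Eif4ebp1, an inhibitor of cap-dependent initiation (2.56-fold), and Eif3f, an eIF3 subunit (2.27-fold). Eif2b4 and Eif4a2 were at 0.99 and 0.62. Mitochondrial ribosomal proteins, which serve the separate ribosome of mitochondria, had a median of 0.04 over 70 genes on chip A, with 3 lower and 1 higher, and of 0.26 over 23 genes on chip B, with 1 lower and 3 higher. Mrpl52 and Mrpl19 were 2.06-fold and 2.03-fold lower, and Mrpl27 was 2.39-fold higher. Against brain the mitochondrial list had a median of 0.28, with 7 of 70 higher and 3 lower, both under the background. The median of the cytosolic genes was -0.89 in the same arrays where that of the mitochondrial genes was 0.04, with no test of the difference.

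**Figure D5:**
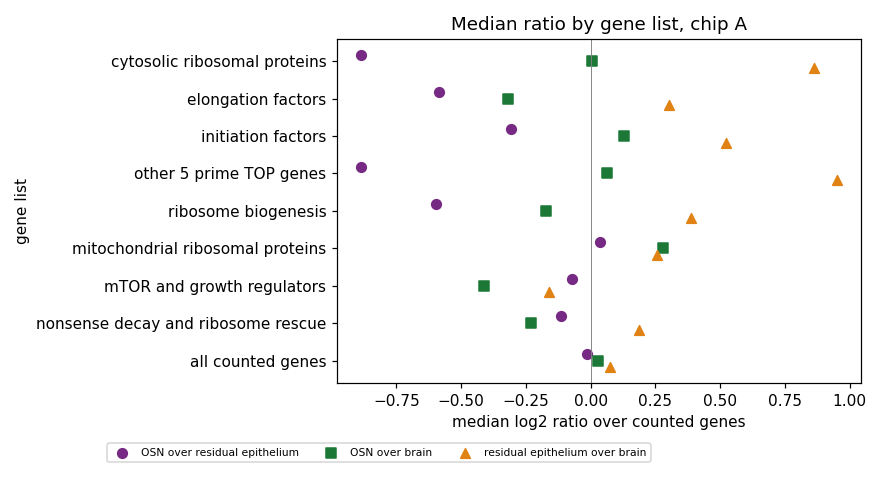
Median log2 ratio over the counted genes of each list on chip A in the 3 comparisons, with all counted genes in the lowest row. Cytosolic ribosomal proteins and other tract-bearing messages have medians of -0.89 for OSNs over residual epithelium, against 0.04 for mitochondrial ribosomal proteins.

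Markers of dividing, precursor and blood cells had higher signals in the same residual epithelium array. All 18 counted cell cycle markers on chip A were at least 2-fold lower in OSNs than in residual epithelium, with a summed signal of 5113 (OSNs), 38021 (residual epithelium) and 3074 (brain). All 13 neutrophil and marrow markers were lower, with sums of 1989, 83801 and 1401, and 6 of the 13 were under the floor in OSNs and 5 in brain. All 13 counted myeloid markers (sums 2274, 42580 and 7813), all 9 lymphocyte markers (1094, 15901 and 1218) and all 4 erythroid markers (293.2, 9429 and 370.0) were lower too. So were all 6 progenitor markers (1118, 10781 and 3598), all 6 basal cell markers (273.6, 2326 and 187.9) and 4 of 10 markers of immature OSNs (24772, 40675 and 22203).

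Supporting and gland cells were also represented. Of 8 sustentacular markers on chip A, 5 were at least 2-fold lower in OSNs than in residual epithelium, with sums of 10167, 18678 and 1046. Of 4 counted Bowman gland markers 3 were lower, with sums of 4851, 24263 and 667.9. Of 6 endothelial and stromal markers 5 were lower, with sums of 1654, 4503 and 2198. For all marker counts on chip A the background was 18.6% of all counted genes lower and 12.6% higher. Most cell cycle, marrow, lymphocyte, erythroid and basal markers reached the chip median in residual epithelium and not in OSNs, which fixes their direction. Brain glia markers summed to 1215, 4604 and 32321. The part of these cells in the ribosomal protein ratios was not tested. Of these lists, brain had higher chip A sums than OSNs for glia, myeloid, progenitor, lymphocyte, erythroid, and endothelial and stromal markers. Its chip A sums were lower for the others. This order is weak where many markers were under the floor in OSNs and in brain. Those were 4 and 4 of 5 erythroid, 6 and 6 of 11 lymphocyte, 5 and 5 of 6 basal, and 7 and 10 of 19 cell cycle markers.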

How the data were processed

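The deposited values are intensity signals per probe set on a linear scale with 1 colour. Per the submitters' processing notes the authors computed them with MAS5. The notes of 5 samples name it, and those of the brain array of chip A do not. No version, scaling target or detection call is given in the sources used here. Trimmed means between 500.08 and 500.14 show that all arrays had been scaled alike, which fixes the mean of each array.

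Control probe sets (64 per chip) were left out. Symbols came from the platform annotation and were updated through Entrez identifiers to GRCm38.p6 RefSeq symbols. Ratios, floor, filter and the 2-fold limit are as given in the report, and each chip was treated on its own. With 1 array per population and chip no p-value was computed, and the number of arrays limits the precision. Named members are the extremes of each comparison, the paralogs, the stalk genes and Rpsa, members on both chips, members whose probe sets differ by over 1 log2 unit and members under the floor. Rps4x, Rps15, Rpl8, Rpl14, Rpl19 and Rpl38 fall outside that rule and were chosen after their values were seen. Other genes were named from the extremes of each list. The members, gene lists and tests were chosen with earlier results of these data known. Alternatives were the floor, the filter, a pseudocount, the scaling, the choice of probe set, the fold limit and leaving out the paralogs. The computation was tested on simulated arrays. Scripts ran in Python 3.11.15 with pandas 2.3.3 and numpy 2.4.6, and figures were drawn with matplotlib 3.10.9.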

Additional observations from a re-analysis of the deposited data

How the results depend on the processing

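With 1 array per population and chip, no array could be left out. No paired analysis was possible because each group is a single array and the labels carry no shared replicate numbers. Of 123 recomputed values on chip A, 103 kept their main value within the spread between chips or 1.5 times the count. The median for OSNs over residual epithelium was -0.57 with only plain _at probe sets. The 12 lower genes of 42 then became 3 of 12. The count was 21 of 42 with scaling on shared probe sets (21.4% of all genes lower). It was 36 of 79 with every probe set on its own (18.3%) and 29 of 42 at 1.5-fold (27.9%). With the median taken over a gene's probe sets, 17 of 42 were lower (19.1%) and the family median was -0.97. For residual epithelium over brain, the 15 higher genes of 43 became 6 of 13 with plain _at probe sets (20.7% of all genes higher), 35 of 80 with every probe set (20.7%) and 27 of 43 at 1.5-fold (32.6%), where 1 gene was lower. For OSNs over brain, the 1 higher gene became 0 with the floor at percentile 40 or the filter at percentile 75 or 90, 2 with quantile normalization or with the median taken over probe sets, 3 of 79 with every probe set and 5 of 43 at 1.5-fold (28.0% of all genes higher). The 2 lower genes became 0 of 13 with plain _at probe sets, 1 of 40 without paralogs, 4 of 79 with every probe set and 5 of 43 at 1.5-fold (29.3% lower).

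Chip B rests on 3 counted genes. Its median for OSNs over residual epithelium (-0.80) was -0.44 with no filter, with plain _at probe sets or with every probe set, -1.27 with the filter at percentile 90 or without paralogs, and -0.078 with the median taken over probe sets. The 1 lower gene became 0 with plain _at probe sets and 2 at 1.5-fold, and 1 probe set was higher when each was counted. For residual epithelium over brain the median (1.03) was 1.5 with the filter at percentile 90 or without paralogs, 0.66 with scaling on shared probe sets and 0.46 with the median over probe sets. The 2 higher genes became 1 with centring, scaling on shared probe sets, the median over probe sets or plain _at probe sets, and 1 probe set was lower when each was counted. Plain _at probe sets leave 12 genes counted on chip A for OSNs over residual epithelium and 13 in the other comparisons, and every probe set on its own raises the number counted. The cause of the other changes was not tested.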

Other observations

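Growth regulators upstream of ribosome production were mostly within 2-fold between the populations on chip A. Of 12 counted genes of the mTOR and growth list, 2 were at least 2-fold lower in OSNs than in residual epithelium and 0 higher (median -0.07), against 18.6% and 12.6% of all counted genes. They were Myc, a transcription factor known to drive ribosome synthesis (at least 3.88-fold, signals of 40.5, 274.2 and 84.0 in OSNs, residual epithelium and brain), and its relative Mycn (3.28-fold, 98.3, 322.4 and 141.3). Both passed the signal filter through the residual epithelium array only. Mtor, the growth kinase, had 835.3, 838.9 and 1008, and Larp1, which binds tract-bearing messages, had 1920, 1301 and 1112.

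Genes of nonsense-mediated decay and ribosome rescue had a median of -0.11 over 6 counted genes on chip A for OSNs over residual epithelium. Of these, 1 was at least 2-fold higher and 0 lower, against 12.6% and 18.6% of all counted genes. The higher gene was Smg5, with signals of 948.7, 403.9 and 548.6. On chip B 0 of 4 counted genes were higher and 1 lower (median -0.15), against 13.4% and 17.7%.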
